A study of Mus musculus with 10 samples.

Results

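Skeletal muscle genes were followed in RNA of dorsal root ganglia (DRG), a tissue of sensory neurons and glia that holds no muscle fibres of its own. The set holds 32 of the 55414 genes counted, chosen by symbol: actins, myosins, troponins and other fibre proteins, calcium handling proteins, and 3 genes of muscle regulation and the muscle endplate. All 32 had a row in each of the 10 count tables. DRG of 5 control and 5 *WD1* cKO mouse embryos were taken at the embryonic stage E18.5, and every embryo carried *Dach1* flox/flox. The *WD1* cKO embryos also carried Wnt1-Cre, which is active in the neural crest, the source of DRG neurons and glia, while the controls, described in the study as littermates, had no Cre. The sample titles gave the groups, because the genotype entries of the labels are exchanged between them. *Dach1* was counted 719 to 1008 times per control library (35.1 to 41.6 CPM, counts scaled to 1e+06 per library) and 399 to 708 times per *WD1* cKO library (19.1 to 20.7 CPM), so its level followed the titles. Skeletal muscle arises from the somites and not from the neural crest, so this Cre was not aimed at muscle fibres.

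A muscle fibre shortens when myosin heavy chains of the thick filament pull on actin of the thin filament. Troponin and tropomyosin on the thin filament gate that contact, and calcium released from the sarcoplasmic reticulum through the ryanodine receptor opens the gate. Many of these proteins come in variants. Fetal fibres use embryonic and neonatal myosin, cardiac-type actin and troponin T, and the gamma subunit of the acetylcholine receptor, and mature fibres replace them with adult fast or slow forms.

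Depth was 20465132 to 27528784 counts per control library and 19757596 to 34796562 counts per *WD1* cKO library. The markers of sensory neurons, among them *Tubb3*, *Isl1*, *Prph*, *Avil* and *Pou4f1*, summed to 5878 to 6250 CPM in control and 5847 to 6102 CPM in *WD1* cKO libraries, so the defining genes of the labelled tissue were present. Blood and spinal cord genes varied much more between libraries, and their values are given beside the muscle genes further on. Each embryo gave 1 library, so p-values measure the spread between these libraries. Intervals of single shares are binomial intervals within 1 library, so they cover counting error only and not the spread between embryos. The reads carried no molecular identifiers, so reads and not molecules were counted.

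The 32 genes together made up a small and variable part of every library. Their counts summed to 5857, 3463, 5350, 2338 and 9380 in control replicates 1 to 5 and to 3482, 4194, 7455, 3329 and 4737 in *WD1* cKO replicates 1 to 5. As a share of all counts this was 0.0286%, 0.0154%, 0.0254%, 0.00849% and 0.0405% in control and 0.0147%, 0.0159%, 0.0250%, 0.0168% and 0.0136% in *WD1* cKO libraries. The exact (Clopper-Pearson) 95% interval of the share in control replicate 4 ran from 0.00815% to 0.00884% and that in control replicate 5 from 0.0397% to 0.0414%. The lowest and the highest library were therefore both controls. Control replicate 4 was also the deepest control library, at 27528784 counts. On the CPM scale the sum was 238 ± 126 (SD, n = 5) in control and 172 ± 43.8 (SD, n = 5) in *WD1* cKO embryos, and the highest library was 4.80 times the lowest in control and 1.81 times in *WD1* cKO embryos. The groups overlapped, and the mean log2 sum was lower in *WD1* cKO embryos by a difference of -0.31, less than the pooled SD of 0.66. In bulk RNA, fewer muscle cells and less muscle RNA per cell cannot be told apart.

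**Figure D1:**
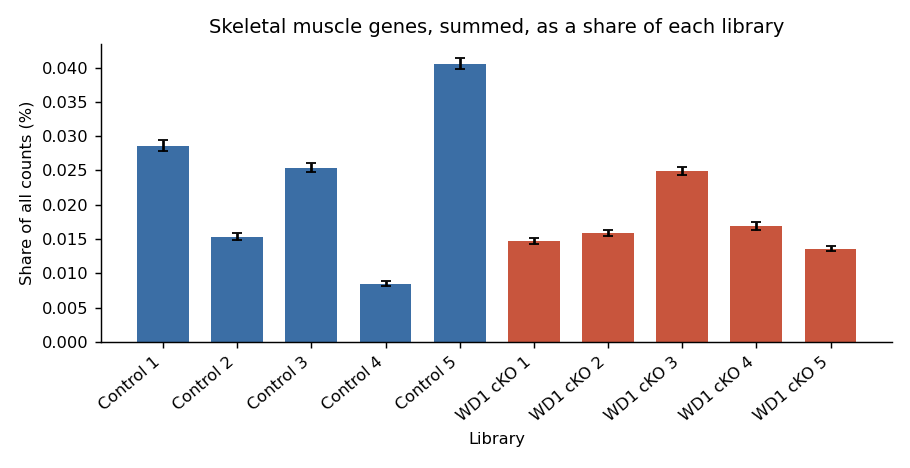
Summed counts of the 32 skeletal muscle genes as a percentage of all counts of each library (y axis) in 5 control (blue) and 5 *WD1* cKO (red) libraries (x axis), with exact 95% binomial intervals. Control libraries spanned 0.00849% to 0.0405%, and all *WD1* cKO libraries lay inside that span, from 0.0136% to 0.0250%.

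The thin filament genes were the most abundant. *Acta1* encodes the actin of mature skeletal fibres and was the member with the most counts in all 10 libraries. It was measured at 42.4, 29.3, 40.5, 13.1 and 57.9 CPM in control and 25.2, 26.7, 34.8, 24.4 and 19.0 CPM in *WD1* cKO replicates 1 to 5. The controls held both the highest and the lowest value, and the log2 fold change of -0.49 (SE 0.30) did not pass the test (edgeR, quasi-likelihood, adjusted p = 1.00 after Benjamini-Hochberg over all genes tested). *Actc1*, the cardiac actin that fetal skeletal fibres also use, was at 16.4, 8.25, 13.1, 1.47 and 26.9 CPM in control and at 6.28, 6.84, 16.2, 7.11 and 5.66 CPM in *WD1* cKO libraries. Control replicate 4 thus had 40 counts of *Actc1* and control replicate 5 had 611. *Tpm2*, a tropomyosin of skeletal and smooth muscle, varied far less, with controls at 12.5 to 29.9 CPM and *WD1* cKO libraries at 16.5 to 24.6 CPM. *Neb*, the giant protein along the thin filament, ranged from 2.91 to 9.72 and from 3.38 to 6.42 CPM.

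Promoter windows of RefSeq (GRCm38.p6, from 250 bases before to 50 bases after the transcription start) were read for these genes because most of them rose and fell together from library to library. A window was found for 29 of the 32 genes, with 33 windows in all since some genes have more than 1 start. *Tnnt3*, *Tnni2* and *Neb* had none. The E-box CAGCTG, the form bound by the MyoD family of myogenic factors, reads the same on both strands and is 1 case of the general E-box CANNTG. It occurred in 16 of the 33 windows (48.5%) and in 16.3% of all 32851 windows of the same length. The general form occurred in 30 of the 33 (90.9%) and in 72.3% of all windows, the MEF2 motif in 4 (12.1%) and in 3.19%, and the CArG motif of serum response factor in 3 (9.09%) and in 1.63%. A match is a run of letters and was not measured as a binding site. The windows of *Acta1* (chr8:123894726-123895025, minus strand), *Chrna1* (chr2:73580289-73580588, minus strand), *Chrng* (chr1:87205561-87205860, plus strand) and *Ryr1* (chr7:29125102-29125401, minus strand) are shown 5′ to 3′ with CAGCTG in capitals. They stand for the most abundant member, for 2 endplate receptor genes that hold the motif 2 times each, and for a member that changed little between libraries and has no match. Other members differed from this choice. *Tnni1*, with the smallest control ratio of highest to lowest library (1.61), held CAGCTG in each of its windows. Of the members with the widest control ratios, *Myh3*, *Myh8*, *Actc1* and *Ttn* held none and *Mybpc1* held 1. Whether the motif goes with the pattern across libraries was not tested.
Acta1: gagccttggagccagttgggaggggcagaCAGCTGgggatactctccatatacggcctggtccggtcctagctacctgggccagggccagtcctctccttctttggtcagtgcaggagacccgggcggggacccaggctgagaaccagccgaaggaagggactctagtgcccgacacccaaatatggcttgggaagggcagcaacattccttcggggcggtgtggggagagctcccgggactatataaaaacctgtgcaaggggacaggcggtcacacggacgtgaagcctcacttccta
Chrna1: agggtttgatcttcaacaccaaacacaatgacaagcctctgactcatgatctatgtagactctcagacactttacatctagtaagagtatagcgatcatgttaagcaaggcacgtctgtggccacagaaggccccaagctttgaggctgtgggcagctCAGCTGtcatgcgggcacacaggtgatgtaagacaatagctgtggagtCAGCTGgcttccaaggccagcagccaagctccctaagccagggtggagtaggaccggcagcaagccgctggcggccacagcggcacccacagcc
Chrng: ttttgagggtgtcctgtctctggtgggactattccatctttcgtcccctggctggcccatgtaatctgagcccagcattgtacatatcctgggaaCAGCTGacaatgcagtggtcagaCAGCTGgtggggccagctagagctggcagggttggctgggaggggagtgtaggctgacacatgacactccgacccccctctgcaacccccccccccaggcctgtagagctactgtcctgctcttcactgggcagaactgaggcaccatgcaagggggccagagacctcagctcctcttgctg
Ryr1: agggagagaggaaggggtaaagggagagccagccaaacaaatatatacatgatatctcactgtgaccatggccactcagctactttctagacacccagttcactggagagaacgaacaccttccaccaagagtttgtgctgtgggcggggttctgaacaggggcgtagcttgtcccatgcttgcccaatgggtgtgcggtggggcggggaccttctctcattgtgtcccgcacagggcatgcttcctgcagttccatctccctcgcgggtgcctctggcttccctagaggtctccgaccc
The match of *Acta1* starts 221 bases before the transcription start. Those of *Chrna1* start 92 and 44 bases before it, and those of *Chrng* 155 and 132 bases before it.

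The myosin heavy chains, the motor proteins of the thick filament, showed the widest range. *Myh3*, the embryonic form, was at 21.9, 5.29, 14.7, 1.47 and 34.2 CPM in control and at 7.58, 6.84, 22.7, 8.54 and 9.44 CPM in *WD1* cKO libraries. Its highest control library was 23.3 times its lowest, the widest ratio among the 28 members with over 3 counts in every control library. *Myh8*, the neonatal form, was at 21.6, 3.84, 23.6, 3.13 and 46.2 CPM in control and at 8.72, 8.40, 18.4, 13.4 and 7.76 CPM in *WD1* cKO libraries. Both genes had their lowest value in control replicate 4 and their highest in control replicate 5, and the *WD1* cKO libraries lay between. *Myh7*, the slow and cardiac form, lay between 0.331 and 3.43 CPM in control and between 1.14 and 1.82 CPM in *WD1* cKO libraries. *Myh1*, an adult fast form, was near the limit of detection, with 0 to 10 counts per library and 38 in all 10, and was not tested.

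The myosin light chains were led by *Mylpf*, the regulatory light chain of fast fibres, at 5.01 to 22.1 CPM in control and 6.23 to 13.6 CPM in *WD1* cKO libraries. *Myl1*, the alkali light chain of fast fibres, ranged from 1.73 to 9.85 and from 1.60 to 5.80 CPM. *Myl4*, the embryonic and atrial light chain, was at 4.88, 4.10, 3.91, 2.02 and 4.88 CPM in control and at 2.32, 3.53, 3.11, 2.19 and 2.68 CPM in *WD1* cKO libraries. In 4 of the 5 controls *Myl4* lay above every *WD1* cKO library, and control replicate 4 lay below all of them. The slow and ventricular forms *Myl2* and *Myl3* reached at most 0.975 and 1.36 CPM, with 5 to 20 and 8 to 31 counts per library.

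Among the troponins, the fast forms followed the myosins and a slow form did not. *Tnnt3*, troponin T of fast fibres, was at 13.4, 7.50, 12.2, 3.90 and 22.0 CPM in control and at 5.27, 6.57, 12.2, 7.62 and 5.74 CPM in *WD1* cKO libraries. *Tnni2*, troponin I of fast fibres, ranged from 1.21 to 10.4 and from 2.28 to 5.53 CPM. *Tnni1*, troponin I of slow and fetal fibres, was at 7.75, 7.45, 6.64, 7.36 and 10.7 CPM in control and at 6.44, 7.07, 7.78, 8.23 and 9.58 CPM in *WD1* cKO libraries. In control replicate 4, where *Tnni2* had its lowest value of 33 counts, *Tnni1* was counted 200 times. *Tnni1* had the smallest control ratio of highest to lowest library of the 28 members, at 1.61. The slow and cardiac troponins *Tnnt1*, *Tnnt2* and *Tnnc1* ranged from 1.44 to 6.24, from 1.77 to 3.92 and from 0.994 to 2.77 CPM in control libraries. *Tnnc2*, troponin C of fast fibres, had 0 to 3 counts per library. In the GENCODE vM21 annotation 592 of its 800 exon bases (74.0%) overlap *Ube2c* on the opposite strand, which had 196 to 341 counts. The library kit keeps strand but the strand setting of the counting is not given in the sources used here, so the count of *Tnnc2* is uncertain.

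The scaffold and energy genes moved with the myosins. *Mybpc1*, the slow form of myosin binding protein C, was at 10.2, 2.34, 8.47, 0.846 and 17.7 CPM in control and at 3.12, 2.81, 9.14, 5.59 and 3.18 CPM in *WD1* cKO libraries. *Ckm*, the creatine kinase of muscle, was at 8.78, 3.00, 9.41, 1.66 and 14.5 CPM in control and at 3.37, 3.53, 6.69, 4.73 and 3.12 CPM in *WD1* cKO libraries. *Ttn*, the giant spring of the sarcomere, ranged from 1.55 to 23.9 and from 4.29 to 12.5 CPM, and *Des*, the muscle intermediate filament protein, from 2.50 to 10.5 and from 3.30 to 6.13 CPM. The order of the control libraries was the same in *Mybpc1* and *Ttn*, with replicates 5, 1, 3, 2 and 4 from high to low. *Mybpc2*, the fast form of myosin binding protein C, departed from it, since control replicate 4 with 27 counts was above control replicates 2, 3 and 5. Of the exon bases of *Ckm*, 15.5% overlap an RNA on the opposite strand that had 33 to 51 counts.

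The calcium handling genes were split. *Ryr1*, the ryanodine receptor of skeletal muscle, was at 21.4, 16.3, 14.4, 10.9 and 18.6 CPM in control and at 15.9, 17.0, 13.9, 12.0 and 12.5 CPM in *WD1* cKO libraries. Its highest control library was 1.97 times its lowest, and its range in *WD1* cKO libraries, 1.42 times, was the smallest of any member with over 3 counts in each. *Atp2a1*, the calcium pump of fast fibres, lay between 1.50 and 8.14 CPM in control and between 2.34 and 4.70 CPM in *WD1* cKO libraries. Of its exon bases 21.9% overlap *Rabep2* on the opposite strand, which had 496 to 944 counts. *Casq1* and *Casq2*, the calcium buffers of fast fibres and of slow and cardiac muscle, reached 3.87 and 8.97 CPM, both in control replicate 5.

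*Myog*, encoding myogenin, which drives myoblasts to differentiate, had 10, 17, 8, 0 and 20 counts in control and 14, 15, 30, 4 and 9 counts in *WD1* cKO libraries. *Chrng*, the fetal subunit of the endplate acetylcholine receptor, had 18, 6, 12, 0 and 18 counts in control and 9, 7, 15, 14 and 10 counts in *WD1* cKO libraries. Control replicate 4 was the sole library without a count of either gene, where a count of 0 allows up to 0.11 CPM. *Chrna1*, the alpha subunit of the muscle receptor, did not share that drop, with 48 counts in control replicate 4 and 26 to 65 counts over all libraries.

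**Figure D2:**
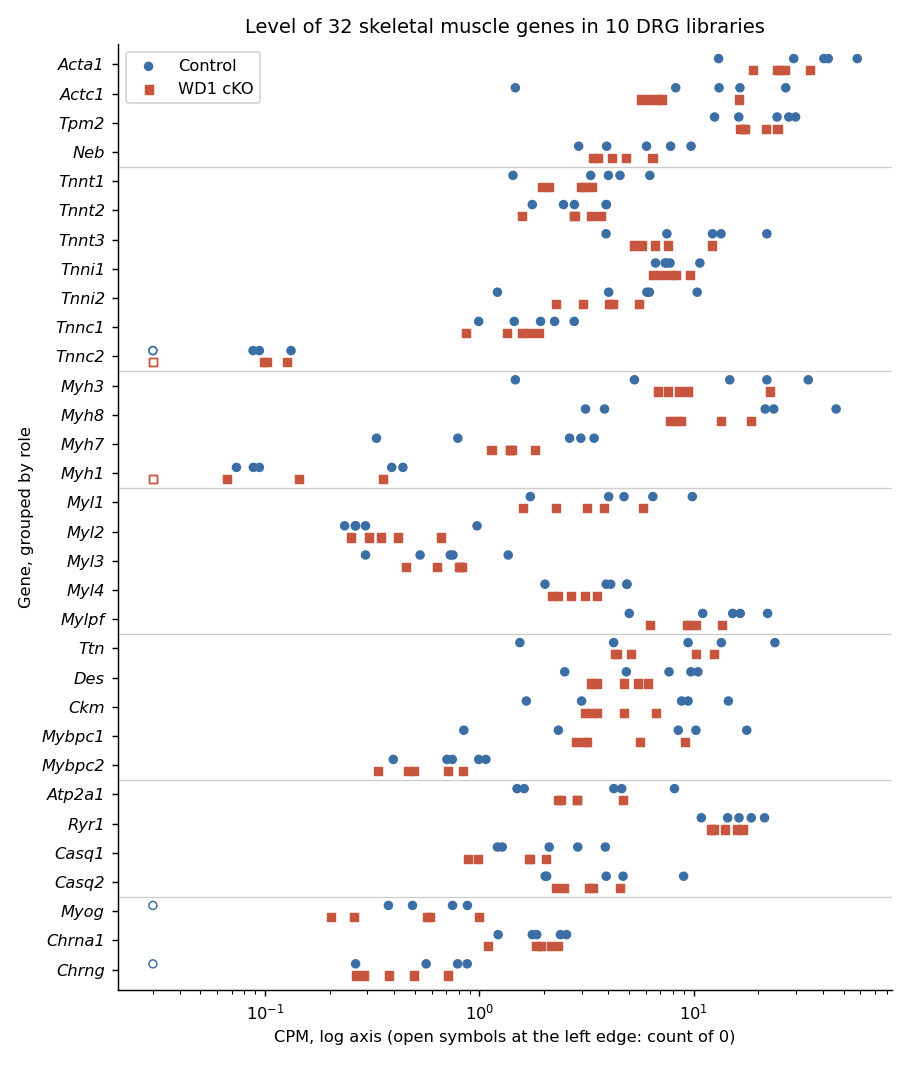
Level of each of the 32 genes (y axis, grouped by role) in CPM on a log axis (x axis) in 5 control (blue circles) and 5 *WD1* cKO libraries (red squares), with open symbols for a count of 0. Control values of *Myh3*, *Myh8*, *Actc1* and *Mybpc1* span over an order of magnitude, those of *Tnni1* and *Ryr1* stay within 1.61 and 1.97 times, and the groups overlap in all 32 genes.

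Per length, the order of the genes changed. CPM per 1000 bases of exon (RPKM, with exon lengths of GENCODE vM21) averaged 20.4 over the 10 libraries for *Acta1*, which was 26.2% of the members' sum. *Mylpf* followed at 11.2, *Tpm2* at 7.16, *Actc1* at 6.69 and *Tnnt3* at 6.09 RPKM, and the library ranges of these 4 overlapped. *Myh3* averaged 2.19 RPKM, close to *Tnni1* at 2.19 and *Myl1* at 2.10. The lowest were *Tnnc2* at 0.0802, *Ttn* at 0.0762 and *Myh1* at 0.0260 RPKM. *Ttn* has an exon length of 116825 bases, so many reads amounted to a low level per length.

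The library with the highest and the library with the lowest level were the same for most members. Control replicate 5 held the highest level of 25 of the 32 genes and of 10.9% of all tested genes, and control replicate 1 of 5 members. Control replicate 4 was alone at the lowest level in 20 of the 32 and was lowest in 10.1% of all tested genes, and *WD1* cKO replicate 1 was alone at the lowest in 5. The SD of log2 CPM (prior count 1) within groups had a median of 0.66 over the 29 members that passed the filter on low counts and of 0.12 over all 17490 genes tested. For 27 of the 29 it was above 0.40, the value that 90% of all genes stay under. The median SD of the members was 0.85 in control and 0.43 in *WD1* cKO embryos, and 28 of the 29 varied more among controls, as did 60.1% of all tested genes. The filter asked for 10 or more counts in 5 or more libraries and left out *Myh1*, *Myl2* and *Tnnc2*.

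Other genes that followed the members' sum across the 10 libraries were muscle genes too. Likeness was the root mean square difference, over the 10 libraries, between the mean-centred log2 CPM of a gene and that of the sum, so that a smaller value means a closer pattern. The 10 nearest genes outside the set included *Itgb1bp2* (0.20), *Trim72* (0.20), *Actn2* (0.24), *Ldb3* (0.26), *Nexn* (0.26), *Tceal7* (0.30), *Myo18b* (0.30), *Tcap* (0.32) and *Klhl41* (0.33), against a median of 0.63 over all tested genes. *Actn2*, *Ldb3* and *Tcap* encode proteins of the Z-disc, the anchor of the thin filament, and *Actn2* had 119 to 277 counts in control and 125 to 223 counts in *WD1* cKO libraries. The measure weighs the size of the swings as well as their order, so *Myh3* (0.67) and *Mybpc1* (0.63), which swung more widely than the sum, lay above that median. The farthest members were *Myog* (1.00), *Chrng* (0.85) and *Mybpc2* (0.76).

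The genotype contrast asked whether the muscle genes differed in DRG of embryos with Wnt1-Cre, in which *Dach1* counts were lower but not absent. None of the 29 tested members passed an adjusted p of 0.05 in edgeR's quasi-likelihood test (Benjamini-Hochberg over 17490 genes), where 0.04% of all genes, 7 of them, were called. At an unadjusted p of 0.05 the count was 1 of 29, near the 4.5% of all genes. DESeq2 called 0 members after adjustment and 1 before, where 3.68% of all genes were called before adjustment. The fitted log2 fold change was below 0 in 28 of the 29, against 49.9% of all genes. The median was -0.48 for the members and 0.00022 for all genes, the range ran from -0.79 for *Ckm* to 0.12 for *Myog*, and the standard errors from 0.14 to 0.61. Members share the same libraries and rise and fall together in them, so they are not 29 separate measurements of the genotype. No member had groups that did not overlap, where 1.06% of all genes did.

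The size of the contrast depended on single control libraries. Without control replicate 5, the library with the most muscle RNA, 19 of the 29 log2 fold changes were below 0 and their median was -0.18. In that fit 0 members had an unadjusted p under 0.05, where 5.55% of all genes did. Without control replicate 4, the library with the least, all 29 were below 0 and the median was -0.71. There 14 members had an unadjusted p under 0.05, as did 4.65% of all genes, still with 0 members after adjustment. With both left out, an alternative chosen after the data were seen, 26 of the 29 were below 0 with a median of -0.44. In this fit 5 members had an unadjusted p under 0.05, and the share of all genes rose to 9.03%. The share of all genes below 0 was 49.9% in the main fit and is not given for the others. Each of the other 8 libraries was left out as well. Without control replicate 2 or *WD1* cKO replicate 3 the count at an unadjusted p of 0.05 was 3, without *WD1* cKO replicate 2 it stayed at 1, and without control replicate 1 or 3 or *WD1* cKO replicate 1, 4 or 5 it was 0. Over these 8 fits the share of all genes at that cut ran from 3.70% to 5.28%. The summed level behaved alike, with a log2 difference of -0.63 without control replicate 4 and -0.063 without control replicate 5.

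By role, the 4 thin filament genes had log2 fold changes from -0.64 to -0.18, the 3 tested heavy chains from -0.79 to -0.48, and the 4 tested light chains from -0.67 to -0.05. The 6 tested troponins ran from -0.65 to -0.03, the 5 scaffold and energy genes from -0.79 to -0.45, and the 4 calcium handling genes from -0.61 to -0.19. The 3 regulator and endplate genes lay between -0.22 and 0.12. *Ckm* averaged 7.47 ± 5.22 CPM (SD, n = 5) in control and 4.29 ± 1.48 CPM (SD, n = 5) in *WD1* cKO embryos, a log2 fold change of -0.79 with a standard error of 0.47. *Myh8* gave -0.79 with a larger standard error of 0.59. The member with an unadjusted p under 0.05 was *Myl4*, at 3.96 ± 1.17 and 2.77 ± 0.560 CPM (SD, n = 5 each) with a log2 fold change of -0.50 (SE 0.22; edgeR, unadjusted p = 0.0417, adjusted p = 1.00), and no member passed the adjusted test. The steady genes *Tnni1* and *Ryr1* gave -0.03 (SE 0.14) and -0.19 (SE 0.16).

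**Figure D3:**
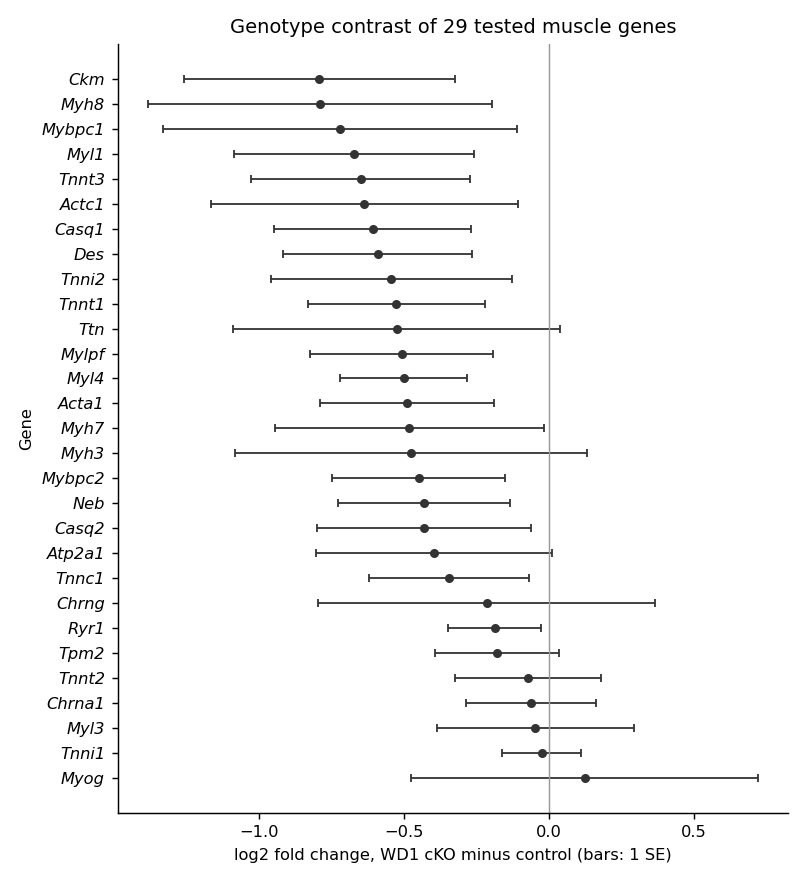
Log2 fold change of *WD1* cKO against control embryos (x axis, bars of 1 standard error) for the 29 tested genes (y axis), ordered by value, from edgeR's quasi-likelihood fit. All but *Myog* lie below 0, from -0.79 to 0.12, and none has an adjusted p under 0.05.

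The myosin heavy chains were mostly of the developmental forms. Of the summed RPKM of *Myh3*, *Myh8*, *Myh7*, *Myh1*, *Myh2* and *Myh4*, the embryonic and neonatal forms together took 92.6%, 91.9%, 91.6%, 88.6% and 94.8% in control and 91.5%, 91.3%, 94.1%, 90.8% and 90.0% in *WD1* cKO replicates 1 to 5. The mean was 91.9 ± 2.22% (SD, n = 5) and 91.5 ± 1.54% (SD, n = 5), so their joint share varied little while their amount varied many times over. The split within that share was less steady, with *Myh3* at 42.3% to 66.9% and *Myh8* at 25.0% to 46.3% of the summed RPKM. It depends on exon lengths of 6057 bases for *Myh3* and 11772 bases for *Myh8*. By counts over all 10 libraries *Myh8* was ahead, with 3683 against 3240. *Myh7* took 3.75% to 7.41%. The adult fast forms *Myh1*, *Myh2* and *Myh4* took at most 2.02%, 2.69% and 0.976% of any library, on 38, 64 and 19 counts in all 10 libraries.

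Within the developmental pair, *Myh3* was above *Myh8* per length in 9 of 10 libraries and by counts in 4. The log2 ratio of their counts was -0.34 ± 0.60 (SD, n = 5) in control and -0.11 ± 0.40 (SD, n = 5) in *WD1* cKO embryos. Per length, *Myl1* exceeded the embryonic *Myl4* in all 10 libraries, but by counts *Myl4* was ahead in 6 of 10. *Tnnt3* exceeded the fetal and cardiac *Tnnt2* and the slow *Tnnt1* in all 10 libraries on both scales. *Casq2* was above *Casq1* in all 10, *Mybpc1* above *Mybpc2* in 9, and *Tnni1* above *Tnni2* in 2, all per length, while by counts *Tnni1* was above *Tnni2* in all 10. The 2 libraries where slow troponin I led per length were control replicate 4 and *WD1* cKO replicate 5. The order of such pairs thus depended in part on the exon lengths used, which do not enter the comparison between genotypes.

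*Chrne*, the adult epsilon subunit, had 8 to 18 counts per library and was above the fetal *Chrng* per length in all 10. That order rests on an exon length of 4163 bases for *Chrng*. *Chrne* did not follow the muscle sum among controls, with 17 counts in control replicate 4 and 8 in control replicate 5, where *Chrng* had 0 and 18. By counts *Chrng* was ahead in control replicates 1, 3 and 5, with 18, 12 and 18 counts against 9, 10 and 8 of *Chrne*. The log2 ratio of *Chrne* to *Chrng* counts was 0.84 ± 2.60 (SD, n = 5) in control and 0.29 ± 0.12 (SD, n = 5) in *WD1* cKO embryos, and the wide control spread came from control replicate 4, where *Chrng* was at 0 and the ratio depended on the pseudocount of 0.5.

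None of the 12 isoform ratios passed the test between the genotypes. With 5 libraries per group, 1 ratio alone could not have passed after adjustment over 12 ratios, even with full separation of the groups. Exact two-sided permutation tests over the 252 splits of 5 against 5 libraries gave 0 ratios with an unadjusted p under 0.05 and a lowest p of 0.0714, with 0.00794 the smallest p this design allows. That lowest p belonged to *Casq2* over *Casq1*, at 0.84 ± 0.22 in control and 1.14 ± 0.22 in *WD1* cKO embryos (SD, n = 5 each; exact permutation test, adjusted p = 0.825 over 12 ratios). The difference was 0.44 for *Tnnt2* over *Tnnt3*, 0.29 for *Tnni1* over *Tnni2* and 0.23 for *Myh3* over *Myh8*.

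**Figure D4:**
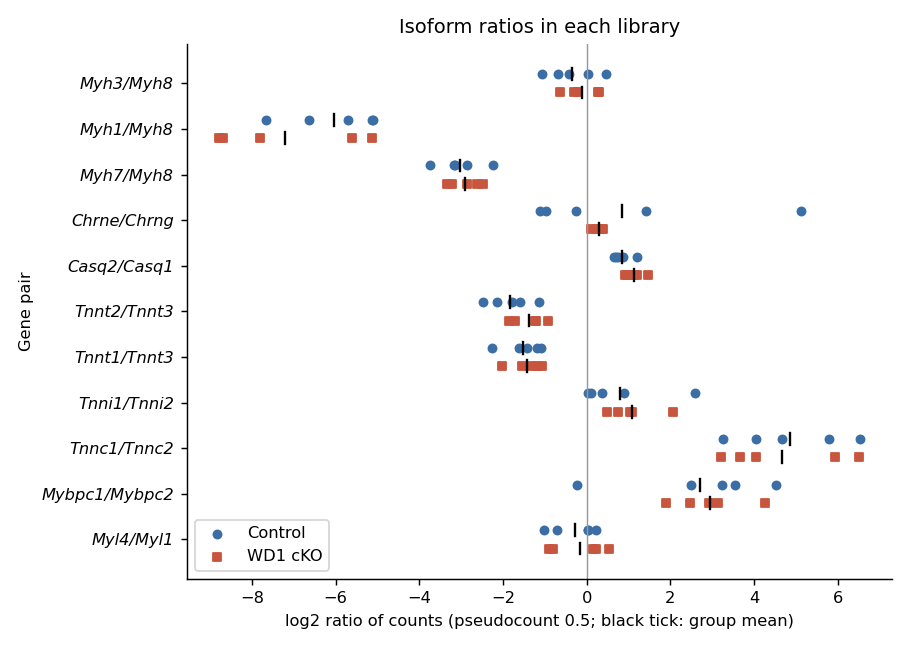
Log2 ratio of counts (x axis, pseudocount 0.5) of 11 gene pairs (y axis) in 5 control (blue circles) and 5 *WD1* cKO libraries (red squares), with black ticks at the group means. The groups overlap in every pair, and the point far to the right in *Chrne*/*Chrng* is control replicate 4, where *Chrng* had 0 counts.

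Further muscle genes followed the set in their sum, with a smaller range. Of 45 other fibre genes 32 were tested, and 0 passed the adjusted test, where 0.04% of all genes did. A log2 fold change below 0 was found in 28, against 49.9% of all genes, with a median of -0.24. An unadjusted p under 0.05 was found in 1 (*Tcap*, -0.71), near the 4.5% of all genes. These genes come from the same libraries as the members, so they are not separate measurements of the genotype. Their sum was 107 to 171 CPM in control and 116 to 142 CPM in *WD1* cKO libraries, again lowest in control replicate 4 and highest in control replicate 5. The highest of this list, *Srl*, a calcium-binding protein of the sarcoplasmic reticulum, had 699, 866, 682, 745 and 785 counts in control libraries, so that its CPM was lowest in control replicate 4 (27.4) but highest in control replicate 2 (38.2). Not every abundant gene followed the sum. *Pygm*, the glycogen phosphorylase of muscle, named after its values were seen, had its highest control level in control replicate 4, at 17.4 CPM. The myogenic regulators and progenitor genes summed to 1.32 to 3.39 CPM in control and 1.35 to 2.72 CPM in *WD1* cKO libraries. *Myod1*, the master regulator of the lineage, had 5, 3, 4, 0 and 9 counts in control and 0, 3, 9, 2 and 1 counts in *WD1* cKO libraries, and *Myf5* and *Myf6* had at most 7 and 6. *Pax7*, the marker of muscle progenitors, had 7, 13, 7, 8 and 13 counts in control and 11, 17, 25, 10 and 17 counts in *WD1* cKO libraries. On the CPM scale its lowest level was in control replicate 4, at 0.294, though control replicates 1 and 3 had 7 counts against 8 there. *Pax3* was not lowest there, with 5, 10, 15, 21 and 21 counts in control and 10, 19, 23, 19 and 34 counts in *WD1* cKO libraries. Its control level ran from 0.244 CPM in control replicate 1 to 0.924 CPM in control replicate 5. *Pax7* and *Pax3* were the tested genes of the list. Their log2 fold changes were above 0, at 0.49 for *Pax7* and 0.31 for *Pax3*, and 0 passed the adjusted test.

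The further endplate genes also stayed level, at 19.3 to 22.7 CPM in control and 16.0 to 21.4 CPM in *WD1* cKO libraries. Of these, 0 of 5 tested genes were called, where 0.04% of all genes were. *Chrnb1*, *Musk* and *Rapsn*, the beta subunit, the kinase that clusters the receptor and its anchor, had 73 to 155, 64 to 175 and 94 to 198 counts. *Chrnd*, the delta subunit, behaved otherwise, with 8, 2, 4, 0 and 10 counts in control and 3, 4, 11, 1 and 3 counts in *WD1* cKO libraries.

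Markers of neighbouring tissues were set beside the muscle sum. The cardiac list was at 15.5 to 21.2 CPM in control and 16.2 to 17.9 CPM in *WD1* cKO libraries, led by *Myh6*, a cardiac myosin, with 305 to 499 counts, while *Nkx2-5*, which defines heart cells, was at 0 in all 10. Smooth muscle and mural genes summed to 69.3 to 121 and 81.8 to 116 CPM, connective tissue genes to 4119 to 5757 and 4567 to 5356 CPM, cartilage and bone genes to 80.5 to 100.2 and 86.5 to 106 CPM, and brown fat genes to 2.54 to 3.16 and 1.92 to 4.00 CPM. None of these lists had its lowest level in control replicate 4 together with its highest in control replicate 5. The sum of the 4 tendon genes was highest in control replicate 4 (90.0 CPM) and lowest in control replicate 5 (45.0 CPM), and most of it was *Fmod*, an extracellular matrix proteoglycan, with 2115 and 708 counts. *Tnmd*, a defining tendon gene, had 24, 6, 25, 2 and 16 counts in control and 27, 1, 63, 6 and 12 counts in *WD1* cKO libraries. Among controls it was lowest in control replicate 4, as muscle was, but control replicates 1 and 3 were above control replicate 5.

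Blood genes summed to 155 to 2464 CPM in control and 189 to 1134 CPM in *WD1* cKO libraries. They were lowest in replicates 4 and 5 of both groups, at 155 and 183 CPM in control and 243 and 189 CPM in *WD1* cKO libraries. Replicates 1 to 3 were at 1071 to 2464 CPM in control and at 509 to 1134 CPM in *WD1* cKO libraries. Spinal cord genes reached 12.0 CPM in control replicate 3 and at most 1.06 CPM in any other library. Glial genes ranged from 747 to 871 and from 730 to 916 CPM. The part of each list in the spread of the muscle genes was not tested.

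**Figure D5:**
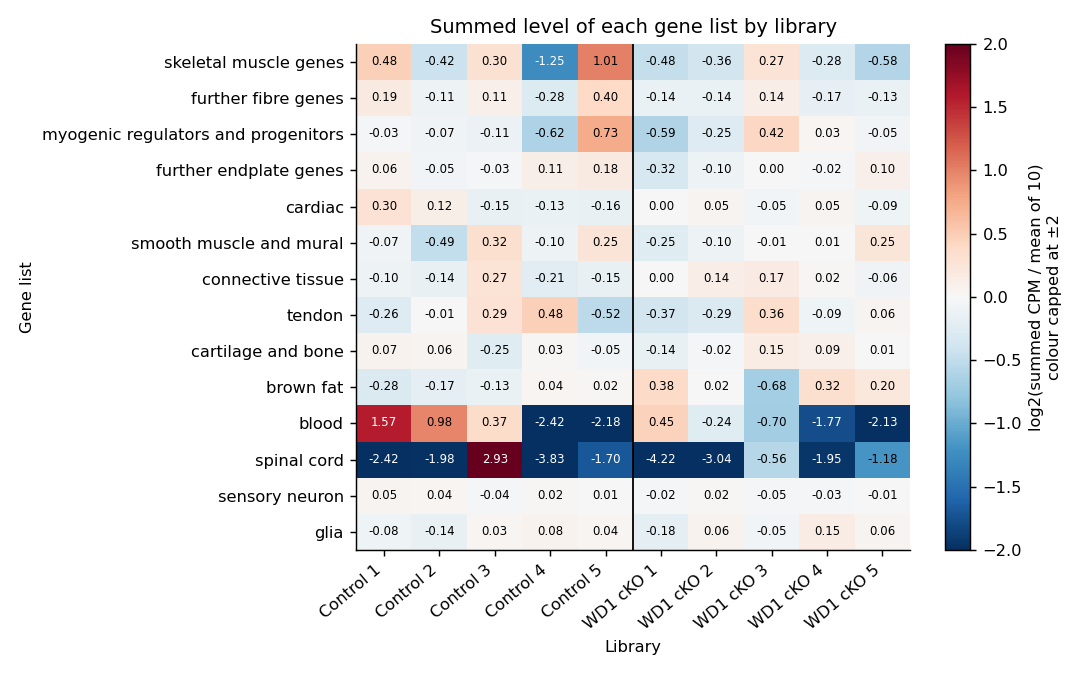
Summed CPM of each of 14 gene lists (y axis) in each library (x axis) as the log2 of its ratio to the mean of the 10 libraries, with colours capped at 2 in both directions and the vertical line between control and *WD1* cKO libraries. The skeletal muscle genes run from -1.25 in control replicate 4 to 1.01 in control replicate 5. The further fibre genes and the myogenic regulators also have their lowest level in control replicate 4 and their highest in control replicate 5. Control replicate 4 lies below control replicate 5 in the endplate, smooth muscle, connective tissue, blood and spinal cord lists too, and above it in the remaining lists. Sensory neuron genes stay within 0.051 of their mean.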

How the data were processed

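Stranded mRNA libraries were aligned by the authors to GRCm39 (STAR 2.7.8a), and the gene counts from featureCounts 2.0.1 were deposited raw, 1 table per library. The strand setting of the counting and the handling of reads with several map positions are not given in the sources used here. The labels name no litter or batch. Here edgeR 4.0.16 under R 4.3.3 was applied to them (TMM, 10 or more counts in 5 or more libraries, quasi-likelihood test without a block, Benjamini-Hochberg over 17490 genes), with DESeq2 1.42.0 as an alternative. CPM used library sizes scaled by TMM. Log2 CPM used a prior count of 1. Symbols were matched to 52081 of 55414 identifiers, and symbols and exon lengths came from GENCODE vM21 (GRCm38). Exon overlaps were read from its GRCm38 coordinates, while the counts were made on GRCm39. The edgeR fit was tested on simulated counts. Isoform ratios were compared by exact permutation with SciPy 1.17.1.

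All 32 genes are named, with the 10 nearest genes by pattern, *Dach1*, and, from 13 further lists, the genes that define a list, lead it or stayed at 0. The members and lists were chosen with earlier results of these data known. The alternatives were other scalings, filters, dispersions, tests and pseudocounts, a replicate block, and each library left out in turn. Adult, behavioural and imaging data of the study were not analysed here, and some genes and 1 of the 12 ratios are not reported here.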

Additional observations from a re-analysis of the deposited data

Results flagged for a closer look

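A library was set apart where its gap to the nearest of its group exceeded 0.71 of the range of log2 CPM, the 95% limit for 5 libraries. This held in 5 of 66 combinations of a quantity and a group, where chance alone would give about 3.3. *WD1* cKO replicate 3 was set apart by *Actc1*, at 16.2 CPM where its group otherwise spanned 5.66 to 7.11 CPM, and by *Myh3*, at 22.7 against 6.84 to 9.44 CPM. Control replicate 1 was set apart by *Myl2*, at 0.975 CPM on 20 counts where the remaining controls spanned 0.235 to 0.294 CPM. Control replicate 4 was set apart by *Myl4*, at 2.02 against 3.91 to 4.88 CPM, and by *Myog*, at 0 against 0.377 to 0.880 CPM.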

How the results depend on the processing

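No member passed an adjusted p of 0.05 under any alternative run, and the median log2 fold change stayed below 0, from -0.71 (without control replicate 4) to -0.18 (without control replicate 5) when 1 library was left out and from -0.53 to -0.39 otherwise. With the replicate number as a block, 0 members and 8 of all genes were called and the median was -0.39. Deviations of same-numbered libraries correlated at 0.036 for number 2 and at 0.319 to 0.391 for the remaining numbers. Of the 5 controls, 3 correlated best with their own number. Blood genes were also lowest in replicates 4 and 5 of both groups. Some likeness between same-numbered libraries was therefore seen. Whether the numbers pair the embryos was not tested. A block by sign flips could not call any ratio, since 0.0625 is the smallest p it allows. With 1 library left out, the log2 fold change changed sign between its lowest and highest value for *Chrng* (-0.58 to 0.086), *Myog* (-0.27 to 0.45), *Tnni1* (-0.12 to 0.10), *Tnnt2* (-0.22 to 0.086), *Chrna1* (-0.19 to 0.075), *Ttn* (-0.82 to 0.042), *Casq2* (-0.62 to 0.027), *Atp2a1* (-0.62 to 0.038), *Myl3* (-0.27 to 0.31) and *Myh3* (-0.93 to 0.055). Without both control replicates 4 and 5, the sign turned for *Myog* (-0.026), *Tnni1* (0.11), *Chrna1* (0.040) and *Myl3* (0.067). Ratios that changed sign with 1 library left out were *Myh7*/*Myh8* (-0.048 to 0.33), *Chrne*/*Chrng* (-1.05 to 0.52), *Tnnt1*/*Tnnt3* (-0.097 to 0.24), *Tnnc1*/*Tnnc2* (-0.65 to 0.23), *Mybpc1*/*Mybpc2* (-0.51 to 0.68) and *Myl4*/*Myl1* (-0.051 to 0.31). The cause was not tested. Genes with counts near 0 (*Myh1*, *Tnnc2*, *Myog*, *Chrng*) allow no statement on small differences at this depth, and the wide spread of the members among controls limits the contrast of the others.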
